A study of Mus musculus with 2 samples.

Results

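Of the 46610 DNaseI peaks on chromosomes 1 to 19 of splenic B cells, 2414 overlapped an annotated exon while lying outside the promoter window of every transcript. They made up 5.18% of the peaks (95% CI 4.98–5.38) and 9.79% of the 24654 peaks outside promoters. A peak entered this set when it covered at least 1 bp of an exon and stayed clear of every promoter window, which reached 5 kb before and 2 kb past a transcription start site (TSS) of GENCODE M1. Each member was then given the kind of exon that held most of its exonic bases, which yielded 1278 coding exon peaks, 808 peaks in a last exon or 3′ UTR of a coding transcript, and 328 peaks in a noncoding exon.

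The cells came from the spleens of 8-week-old C57/Bl6 mice of genotype Trp53+/+ under mock treatment, and were enriched for B220, a surface isoform of CD45 carried by B cells, on magnetic beads. The series compared nothing within the DNaseI assay: it holds 1 DNaseI library and 1 input library, and the peak list of the DNaseI library was the only file used here. There were no replicates, so no test between conditions was possible, and every interval below covers counting error only. The sequencing depth is unknown, and the absence of a peak means only that none was called. Of the B cell marker genes, 8 of 8 had a peak in the promoter window, against 2 of 8 T cell markers (Cd247 and Lck), 4 of 7 myeloid markers (Cd14, Elane, Emr1 and Itgam) and 2 of 4 erythroid markers (among them Klf1). Of the 16245 coding genes with exon sequence outside promoter windows, 63.2% had one. How far other cells contributed to the exonic peaks was not tested.

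DNaseI cuts DNA more readily where nucleosomes are displaced, most often because transcription factors occupy the sequence. Such sites gather at promoters and at enhancers and insulators in introns or between genes. Exons can also hold factor binding sites, in which case the same bases serve both the transcript and the factor. CTCF, a zinc finger protein with a long and well conserved recognition sequence, is the main insulator protein of mammals and helps to shape chromatin loops.

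By the ratio of shares, the sequence word that set exonic peaks furthest apart from intronic ones was the core of the CTCF site, searched on both strands as AGGGGGCGC, AGGTGGCGC, AGAGGGCGC or AGATGGCGC. That rank was not kept with a longer CTCF consensus, whose ratio was 1.96, against 2.59 for the YY1 word. The sites below lie in the 6 highest-scoring exonic peaks that held the word, and show the word in its setting. They are read from mm9, 5′ to 3′ on the strand that carries the word, with the word in capitals and 10 flanking bases on each side.
Gm15582: ttccaccagcAGGGGGCGCcactggctct
1700020L24Rik: agcagccagcAGGTGGCGCtgctgcgacg
Setd1b: gacctccagcAGGGGGCGCcggagggccg
Hist2h2bb: gatgaccacgAGATGGCGCcagcgagtca
Gm11532: gtgggtctgaAGGTGGCGCtgcagctcgt
Gpa33: tgaagacgtcAGGGGGCGCcagaggccag

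The site of Gm15582, an antisense noncoding gene, was at chr7:139848460-139848488 on the plus strand, beyond the annotated end of the gene. The site of 1700020L24Rik was at chr11:83253998-83254026 on the plus strand, within an exon. In Setd1b, which encodes a histone H3 lysine methyltransferase, it was at chr5:123599838-123599866 on the minus strand and within a retained intron transcript. In Hist2h2bb, a gene for histone H2B, it was at chr3:96082438-96082466 on the plus strand and within the last exon. The site of Gm11532 was at chr11:96883672-96883700 on the minus strand, within an exon. That of Gpa33, which encodes a cell surface antigen, was at chr1:168084470-168084498 on the minus strand, outside the exons of the gene. The scores of these 6 peaks ran from 179.16 to 363.35. The word lay 116 bp from the peak centre in Gm15582 and 273 to 685 bp from it in the other 5, outside the central 300 bp in which words were counted.

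The share of words that lay in exonic bases could not be told apart from the share of exonic bases in the windows. Among coding exon peaks, 86 held the word in the central 300 bp, and in 71 of them the word nearest the centre lay outside exonic bases. It lay in an exon in 15 of the 86 (17.4%, CI 10.9–26.8), and exonic bases made up 24.9% of the same windows. The word lay in the coding exon itself in 13 peaks. The sites of 4 high-scoring peaks among them are shown as examples of coding sequence that holds the word. They were chosen after the values had been seen.
Nfkb2: tgccatcagcAGGTGGCGCtgtcccgcta
Zfp219: tgtagccgccAGGGGGCGCtcggaagccc
Dnahc1: ttcttccagcAGGGGGCGCataatctcca
B4galnt1: tcctgcaggtAGGGGGCGCggtgcgggag

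The Nfkb2 site lay at chr19:46383738-46383766 on the minus strand, in a peak of score 77.27 at exon 13 of 23. Nfkb2 encodes the p100 precursor of the noncanonical NF-kappaB pathway. The site of Zfp219, a zinc finger gene, was at chr14:52628666-52628694 on the plus strand, in a peak of score 62.19 at exon 3 of 5. That of Dnahc1, an axonemal dynein heavy chain, was at chr14:32085549-32085577 on the plus strand, in a peak of score 50.4 at exon 57 of 81. That of B4galnt1, a ganglioside synthase, was at chr10:126607967-126607995 on the plus strand, in a peak of score 50.18 at exon 10 of 11. The exon numbers are those of the exon that shared most bases with the peak. In the last exon and 3′ UTR kind, the word lay in exonic bases in 28 of 39 peaks (71.8%, CI 56.2–83.5), where such bases made up 74.0% of the windows.

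Exonic peaks were higher in score and wider than intronic ones, and lower and narrower than those at promoters. The score is the authors' own value from the MACS peak caller and its scale is not stated. Its median was 28.16 in exonic peaks (quartiles 17.85 and 47.6), against 22.45 in intronic, 25.39 in intergenic and 53.99 in promoter peaks. The lowest exonic score was 5.79 and the highest 454.65. The median width was 749.5 bp, against 552 bp in introns, 635 bp between genes and 948 bp at promoters.

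The 3 kinds of exonic peak had much the same score and width. Their median scores were 28.27 for coding exons, 27.7 for last exons or 3′ UTRs and 28.64 for noncoding exons, and the 95% intervals of all 3 overlapped. A score of 100 or more was reached by 152 exonic peaks (6.30%), and most often by the noncoding kind (33 of 328, 10.1%), against 3.48% of intronic, 6.14% of intergenic and 27.7% of promoter peaks and 15.7% of all peaks.

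**Figure D1:**
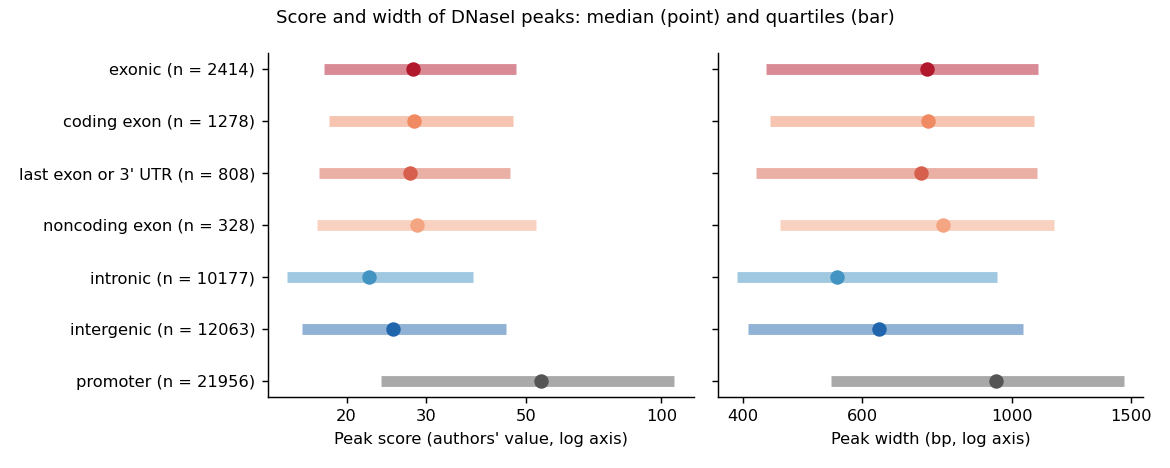
Median (point) and quartiles (bar) of the authors' peak score and of peak width in bp, both on log axes, for exonic peaks, their 3 kinds and the other peaks of the library. The median score of exonic peaks was 28.16, between 22.45 for intronic and 53.99 for promoter peaks.

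The difference from introns in width depended on the rule of any overlap, which by its construction takes in wide peaks more easily. Peaks whose centre lay in an exon had a median width of 594.5 bp and a median score of 25.3, and those whose centre lay outside exons 832 bp and 31.03. When all peaks were assigned by their centre, the excess of exonic over intronic peaks fell from 197.5 to 35.5 bp in median width, with an interval that included 0 (CI -15 to 85), and from 5.71 to 2.13 in median score (CI 0.91–3.62). A difference in width from intronic peaks could thus not be resolved by centre. Within peaks of like width the score difference was also smaller than in the whole set. Among the narrowest quartile of peaks outside promoters (334 to 401 bp), the median score was 16.7 in exonic and 15.3 in intronic peaks, and among the widest quartile (1009 bp and over) 53.6 and 50.3.

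Most exonic peaks were only in part exonic. The median member covered 196.5 bp of exon, or 28.5% of its length, and 440 members (18.2%) lay wholly in exonic bases. The kinds differed widely in this respect. Coding exon peaks had a median of 129 bp of exon (17.7% of the peak), those in last exons or 3′ UTRs 434 bp (83.1%), and noncoding ones 313.5 bp (42.0%). The centre lay in an exon in 299 of 1278 coding exon peaks (23.4%), 571 of 808 last exon or 3′ UTR peaks (70.7%) and 168 of 328 noncoding exon peaks (51.2%). The order of the kinds therefore turned with the rule. By any overlap coding exons held 52.9% of the members and last exons or 3′ UTRs 33.5%, whereas by peak centre they held 28.9% and 54.7% of 1100 peaks.

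The lengths of the exons ran in the same direction. The exon with most of a peak's bases had a median length of 135 bp in the coding kind and 1859.5 bp in the last exon or 3′ UTR kind. Of 112674 coding exons that lay wholly outside promoter windows, 1842 were touched by a peak of any class (1.63%). The same held for 1114 of 26210 last exons or 3′ UTRs (4.25%) and 361 of 12086 noncoding exons (2.99%). Longer exons offer more bases to touch, and among last exons the share was 2.02% of those under 100 bp and 6.32% of those of 1000 bp or more. Per Mb, last exons showed no such rise from 100 bp upward, with 29.5 peak centres in the class that starts at 100 bp, 31.4 from 200 bp, 27.2 from 500 bp and 25.03 from 1000 bp. Per Mb of exon, coding exons of 1000 bp or more held 22.9 peak centres (CI 16.1–31.8) and those under 100 bp 17.4 (CI 12.7–23.3), which overlap. These counts took each distinct exon of any transcript, so overlapping exons and their peak centres could count more than once. The intervals do not allow for that.

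Counted per length of sequence, peak centres were denser in exons than in introns. Outside promoter windows, the density was 23.7 centres per Mb in exons (CI 22.3–25.2), 15.3 in introns (CI 15.0–15.6) and 9.75 between genes. The ratio of exon to intron density was 1.55 (CI 1.46–1.65). By kind, the densities per Mb were 20.1 in coding exons, 25.6 in last exons or 3′ UTRs and 25.9 in noncoding exons, or 1.31, 1.67 and 1.69 times that of introns.

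Exon sequence lay nearer to TSSs than intron sequence, and in both the density of peaks fell with distance. Within the same distance the ratio was smaller in 4 of 5 classes. It was 1.26 (CI 1.12–1.43) up to 5 kb from a TSS, 1.19 (CI 1.07–1.33) from 5 to 10 kb, 1.23 (CI 1.09–1.40) from 10 to 20 kb and 1.18 (CI 0.993–1.39) from 20 to 50 kb. Beyond 50 kb, where the exon figure rests on 51 centres, it was 1.80 (CI 1.36–2.38). With intron density weighted to the TSS distances of exon sequence, the ratio over all exons was 1.24 in place of 1.55.

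**Figure D2:**
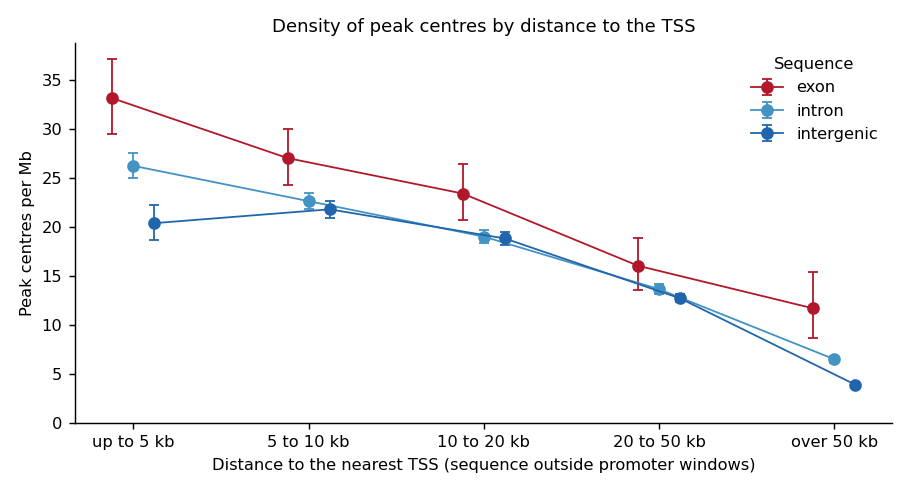
Peak centres per Mb of exon, intron and intergenic sequence outside promoter windows, by distance to the nearest TSS. Points carry exact Poisson 95% intervals, and exon density fell from 33.1 per Mb up to 5 kb to 11.7 per Mb beyond 50 kb.

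Coding exons could not be told apart from the intron sequence just beside them. The density was 18.5 centres per Mb in introns 1 to 250 bp from a coding exon, and the ratio of coding exon to this flank was 1.09 (CI 0.954–1.24). Further out, intron density was 15.6 in the next 250 bp and 16.4 from there to 1000 bp, and coding exons exceeded these by ratios of 1.28 (CI 1.12–1.47) and 1.22 (CI 1.08–1.39). Intron density stood at 19.7 between 2000 and 5000 bp, where the ratio was 1.02 (CI 0.905–1.14), and was lowest, at 13.2, more than 5000 bp away.

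At the other end of the gene, peaks were denser after the transcript end than before it. In the 1 kb before the last annotated end of coding genes there were 29.1 centres per Mb of sequence outside promoter windows, and in the 1 kb after it 34.2 (ratio 1.17, CI 1.03–1.34). The stretch from 2 to 5 kb before the end had 23.8, and the last 1 kb exceeded it by a ratio of 1.22 (CI 1.08–1.38). A transcript end was covered by 337 of the 808 last exon or 3′ UTR peaks (41.7%) and by 35 of 1278 coding exon peaks (2.74%).

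**Figure D3:**
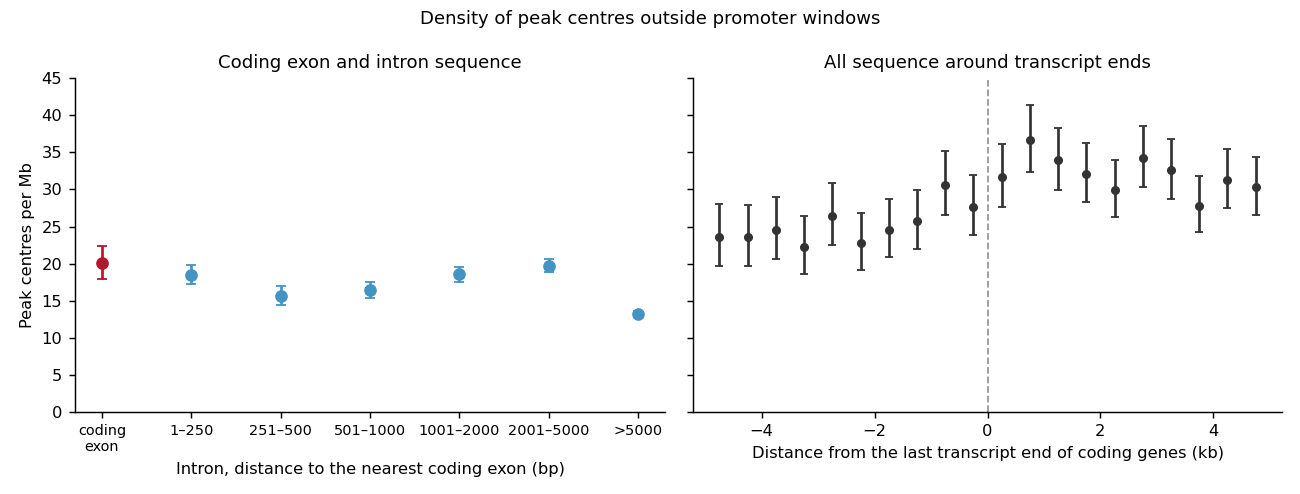
Peak centres per Mb outside promoter windows, with exact Poisson 95% intervals: left, in coding exons and in introns by distance in bp to the nearest coding exon; right, in 500 bp steps around the last transcript end of coding genes (dashed line, distance in kb). The coding exon density of 20.1 lay beside 18.5 in the nearest intron sequence, and the highest value around transcript ends was 36.7, at 500 to 1000 bp after the end.

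The median member lay 9543.5 bp from the nearest TSS, with quartiles at 5657 and 17405 bp. The nearest other peak was at a median gap of 2597 bp, and in 781 of the 2414 members (32.4%) it was a promoter peak. This share was 22.3% in intronic and 17.3% in intergenic peaks, and 49.2% over all peaks. The host gene was protein-coding for 2264 members (93.8%). Of the 328 noncoding exon peaks, 180 lay in noncoding exons of protein-coding genes, 73 in lincRNA genes and 72 in other processed transcript genes. Exons of 2 or more genes were covered by 48 members, for which the host is uncertain.

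The sequence under exonic peaks was richer in G and C than that under intronic peaks. In the central 300 bp, the median GC content was 50.3% in exonic, 47.3% in intronic and 54.3% in promoter peaks. It also exceeded that of exons without a peak, taken as 300 bp around the exon centre: 50.7% against 47.7% for coding exons, 50.7% against 45.7% for last exons or 3′ UTRs, and 48.7% against 44.3% for noncoding exons. Peak windows were centred on the peak, and exonic bases made up 24.3%, 70.5% and 50.6% of them in these kinds. The ratio of observed to expected CpG was 0.265 in exonic, 0.211 in intronic and 0.502 in promoter peaks.

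CpG-rich sequence is typical of promoters. With both a GC content of 55% or more and a CpG ratio of 0.6 or more asked of the 1000 bp around the centre, 100 exonic peaks were CpG-rich (4.14%, CI 3.42–5.01), against 35 of 10177 intronic peaks (0.344%), 1.52% of intergenic and 34.1% of promoter peaks, and 16.7% of all peaks. The share was highest in last exons or 3′ UTRs (59 of 808, 7.30%) and lowest in coding exons (29 of 1278, 2.27%). These 100 peaks had a median score of 40.2 and the other exonic peaks 27.85.

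The CTCF word was found in the central 300 bp of 144 exonic peaks (5.97%, CI 5.09–6.98). The share was 2.03% in intronic, 3.81% in intergenic and 3.58% in promoter peaks, and 3.43% over all peaks. The ratio to intronic peaks was 2.93 (CI 2.38–3.61), and for the kinds it was 3.31 in coding exons, 2.37 in last exons or 3′ UTRs and 2.85 in noncoding exons. The intervals of the kinds overlapped. Exons without a peak held the word in 0.408% to 0.550% of cases, in windows centred on the exon and not on a peak.

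Within peaks of like GC content the ratio of the CTCF word to introns was 2.27 (CI 1.47–3.50) at 45 to 50% GC, 2.52 (CI 1.75–3.62) at 50 to 55% and 2.25 (CI 1.503–3.37) at 55% and over. Under 45% GC, where 6 of 478 exonic peaks held the word, it was 1.53 and its interval included 1 (CI 0.632–3.71). By width, the word was nearly absent from narrow peaks of either class. It was present in 3 of 475 exonic peaks of 334 to 401 bp and 2 of 530 of 402 to 603 bp, but in 88 of 681 of 604 to 1008 bp (12.9%) and 51 of 728 wider ones (7.01%). The ratio to intronic peaks of the same width was 2.57 (CI 1.95–3.38) and 2.46 (CI 1.70–3.56) in these latter classes. Over the whole peak, 214 members held the word (8.86%), at a median of 83 bp from the centre, against 2.99% of intronic, 5.96% of intergenic and 8.75% of promoter peaks, so that the excess over promoters was seen in the central 300 bp alone. Members with the word scored higher (median 43.1) than those without (27.2), and were also wider (983.5 against 702 bp). Intronic peaks showed the same order, with median scores of 38.6 and 22.2.

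Of the other 15 words, 5 were more frequent in exonic than in intronic peaks with intervals above 1, and 1 less. Sp1 (GGGCGG) had a ratio of 1.94 (CI 1.69–2.22), Ets (CCGGAAG) 1.70 (CI 1.30–2.23), EBF1 (CCCNNGGGA) 1.30 (CI 1.09–1.55), the E-box CAGGTG 1.24 (CI 1.16–1.33) and YY1 (AAGATGGCG), in only 8 exonic peaks, 2.59 (CI 1.08–6.25). In points of share, the E-box (30.4% against 24.5%) and Sp1 (11.3% against 5.83%) lay further apart than CTCF. The YY1 word shares bases with the CTCF word AGATGGCGC. The AP-1 word TGANTCA was less frequent, at 7.25% against 9.65% (ratio 0.751, CI 0.644–0.877). Sp1, Ets and YY1 words were all much rarer than at promoters, where Sp1 reached 31.2% against 11.3% of exonic peaks. Over all 46610 peaks the words were found in 18.6% (Sp1), 4.88% (Ets), 6.63% (EBF1), 24.2% (E-box), 0.727% (YY1) and 7.64% (AP-1).

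For the remaining 9 words no difference from intronic peaks could be resolved. The intervals of the ratio included 1 for PU.1 (GAGGAAGT, 4.02% against 4.40%), the octamer ATGCAAAT (1.95% against 2.09%), Runx (TGTGGTT, 7.79% against 8.53%), IRF (GAAANNGAA, 10.2% against 10.2%) and the Ets-IRF composite GAANTGAAA (3.02% against 3.51%), which shares bases with the IRF word. The PU.1 and Ets words share the bases GGAAG but differ before them, so that the same core cannot carry both. The same held for NF-kappaB (GGGANTTTC), NRF1 (GCGCATGCG) and CRE (TGACGTCA), which were in 23, 5 and 8 exonic peaks. Against coding exons without a peak, however, 4 of these 9 words were more frequent in coding exon peaks with intervals above 1. The ratio was 2.04 for PU.1 (CI 1.55–2.69), 1.72 for the octamer (CI 1.18–2.51), 1.61 for Ets-IRF (CI 1.20–2.15) and 1.31 for Runx (CI 1.08–1.59). The windows were unlike. Those of coding exon peaks were centred on the peak and held 24.3% exonic bases, and the others were centred on the exon. In the same comparison the intervals included 1 for Ets (1.13, CI 0.829–1.54), YY1 (1.81, CI 0.747–4.38) and AP-1 (1.02, CI 0.844–1.23). They lay above 1 for Sp1, EBF1 and the E-box. In the other kinds the interval lay above 1 for PU.1 in each, and for Runx in last exons or 3′ UTRs alone. The p53 response element, searched by its consensus with at most 2 mismatches, was in 8 exonic peaks, among them those of Btla, Ankrd13a, Mtmr10, Cyba, Edaradd, Il4ra and Rbm47, with scores from 10.77 to 69.94. The ratio to introns was 0.767 (CI 0.361–1.63). Shares over all peaks were 3.62% for PU.1, 1.62% for the octamer, 6.81% for Runx, 9.21% for IRF and 2.79% for Ets-IRF. They were 1.20% for NF-kappaB, 0.607% for NRF1, 0.682% for CRE and 0.330% for the p53 element.

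**Figure D4:**
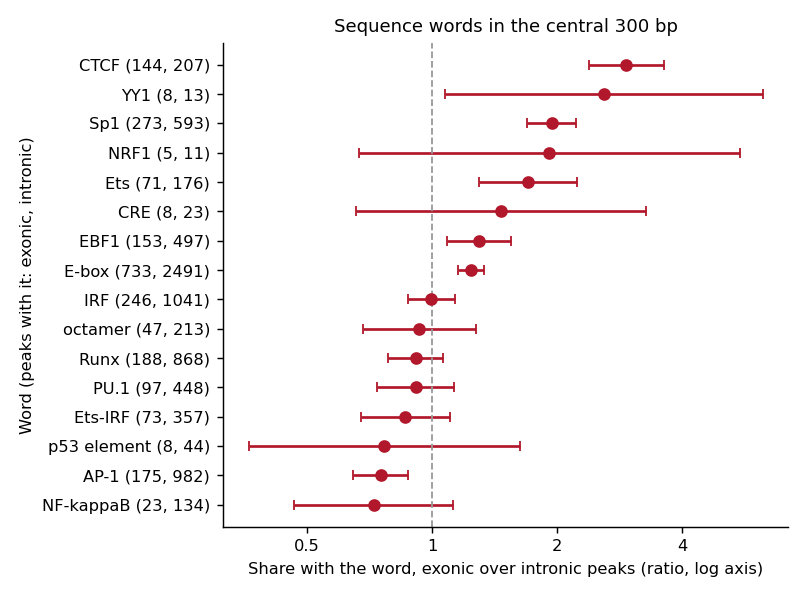
Ratio of the share of exonic peaks to the share of intronic peaks that hold a word in the central 300 bp (log axis), with approximate 95% intervals; the counts of exonic and intronic peaks with the word stand beside its name. CTCF had the highest ratio, 2.93, and the dashed line marks equal shares.

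Exonic peaks were spread thinly over genes. Of 16245 coding genes with exon sequence outside promoter windows, 1800 (11.1%) had at least 1, and of these 1419 had 1, 298 had 2 and 28 had 4 or more. Genes with a promoter peak had one more often (1466 of 10260, 14.3%) than genes without (334 of 5985, 5.58%). The difference held in genes with little, intermediate and much exon sequence, at 7.37% against 3.13%, 14.3% against 5.69%, and 19.7% against 9.14%.

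Trio and Ciita had the most exonic peaks, with 6 each. Of the 5 genes with 5 each, Pik3c2b, Def6 and Il16 had the highest summed scores. Ciita encodes the coactivator that drives MHC class II genes in B cells. Its peaks were of moderate score, from 10.27 to 35.79, and lay at exons 2, 4, 8, 9 and 18 of 19 and at the last exon of a shorter transcript. The peaks of Trio, a large guanine nucleotide exchange factor, scored from 13.93 to 54.25, and those of Pik3c2b, a class II phosphoinositide 3-kinase, from 18.51 to 111.87. In Def6, a guanine nucleotide exchange factor of lymphocytes related to Swap70, the peak at exon 7 of 11 reached 153.62, and the other 4 lay between 6.72 and 52.31. Il16 encodes a cytokine precursor, and 1 of its 5 peaks lay mostly in exonic bases of the neighbouring gene Stard5.

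Genes with known roles in B cells carried exonic peaks more often than coding genes at large. Of 44 genes of the B cell list, 20 did (45.5%, CI 30.4–61.2), against 11.1% of all coding genes and 14.3% of those with a promoter peak, which all 44 had. Their exon sequence was longer, at a median of 2855.5 bp against 2086 bp. Per Mb of exon sequence, the list had 283 exonic peaks (CI 204–382). All coding genes had 52.4, and those with a promoter peak 64.2. The part of exon length in the share of genes was not tested. By peak centre the B cell share fell to 29.5%, against 5.47% of all coding genes and 7.01% of those with a promoter peak. Among peaks at or above the median score it fell to 27.3%, against 5.34% and 7.18%. Introns of the list showed the same pattern, since 29 of the 44 genes (65.9%) also had an intronic peak, against 21.2% of all coding genes. The symbol Ciita stands for 2 gene records in this count.

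Several genes of B cell receptor signalling stood among those of the list with the highest exonic scores. Pik3ap1, an adaptor of the receptor, had 4 exonic peaks, of which the highest (144.51) lay at exon 3 of 17. Blnk, the linker between the receptor and its downstream enzymes, had 3, up to 109.34 at exon 5 of 17. Irf4, a transcription factor needed for plasma cells, had 4, up to 83.36 at exon 8 of 9. Swap70 had 2, with 52.42 at exon 5 of 12, and Tnfrsf13c, the BAFF receptor on which mature B cells depend for survival, had 1, with 45.26 in its last exon. Further members of the list with an exonic peak were Ciita, Pik3cd, Ikzf3, Cxcr5, Ebf1, Bank1, Blk, Cd22, Cd40, Fcer2a, Fcrl1, Irf8, Lyn and Plcg2. Ms4a1, Cd79b and Pax5 had none.

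The other lists lay nearer to the share of all coding genes, with wide intervals. Of 24 T cell genes 3 had an exonic peak, among them Cd3d (122.44) and Tcf7 (22.33), both in the last exon. Of 21 genes of other tissues 2 did, Gfap (32.96) and Actn2 (24.92). Of 22 p53 target genes 2 did: the death receptor gene Tnfrsf10b, with 3 peaks up to a score of 242, and Pmaip1, which encodes Noxa, with a peak of 10.11 near the lower end of the list. Of 11 housekeeping genes with exon sequence left outside the windows 3 did: Cltc (87.39), Gusb (35.86) and Actb (24.93). Among 27 chromatin and transcription regulators 5 did, among them Dnmt3a (36.84), Mll1 (34.65), Arid1a (25.66) and Chd7 (25.55). The share of 18.5% there went with a median of 6965 bp of exon sequence.

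Gene families chosen by symbol were at or under the overall share. Zinc finger genes had 25 of 387 (6.46%, CI 4.22–9.39), with Zscan22 (144.06) and Zfp771 (138.99) highest. Protocadherin genes had 2 of 26, Pcdh1 and Pcdhgc5, and Hox genes 1 of 11, Hoxc9, with scores of 14.76, 11 and 14.23, under the median of exonic peaks. Of 61 olfactory receptor genes 0 had an exonic peak, and the exact interval allowed up to 5.87%. The 5 immunoglobulin segments also had 0, which allowed up to 52.2%.

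**Figure D5:**
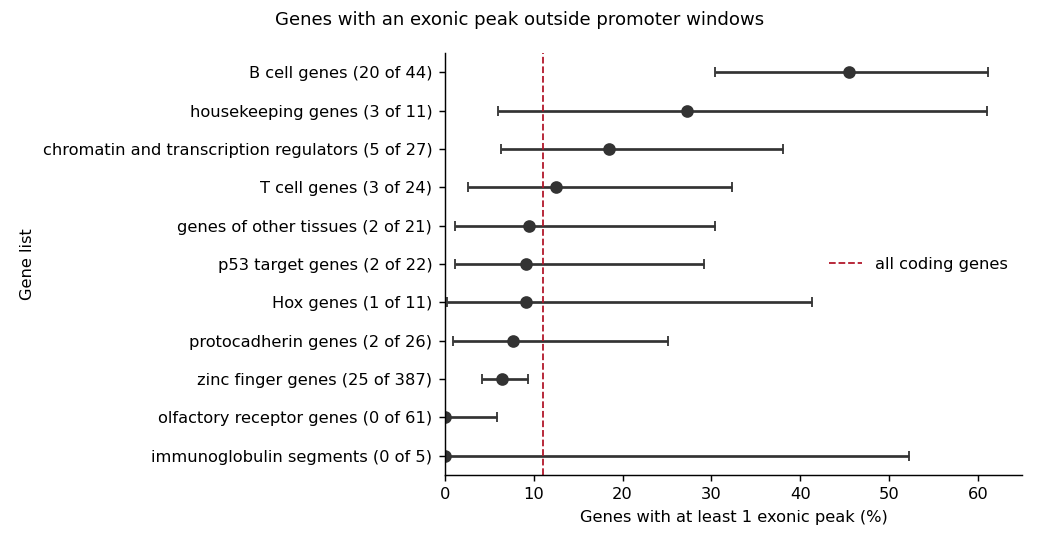
Share of genes with at least 1 exonic peak (%), with exact binomial 95% intervals, for each gene list; counts stand beside the names, and the dashed line marks all coding genes (11.1%). The B cell list, at 45.5%, was the only list whose interval lay above the line.

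The highest exonic scores belonged to genes of many roles. The highest, 454.65, was at Fam65a (chr8:108145859-108149104). It covered 236 of the 390 bp of the last exon, and its centre lay 1388 bp beyond the transcript end. The peak at Gch1 (chr14:47785022-47786221, 340.02), which encodes the first enzyme of tetrahydrobiopterin synthesis, held the whole of exon 3 of 6, which is 56 bp long. Those at Myo10 (280.47), Ano6 (280.11) and Ddx54 (278.48) covered 208, 206 and 565 bp of coding exon. Myo10 encodes an unconventional myosin, Ano6 a lipid scramblase and Ddx54 an RNA helicase. At Wasf2 (279.33), a regulator of actin, 57 of the 145 bp of a noncoding exon were covered.

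The clearest case of a strong peak inside a coding exon was Cmya5, a muscle gene. Its peak of 3037 bp (chr13:93862570-93865606, score 259.83) lay wholly within exon 2 of 13, which is 9310 bp long, and 50591 bp from the nearest TSS. It was the highest of the 433 members that lay within a single exon, of which 331 were in last exons or 3′ UTRs. The next were Haus6 (187.06), Slc37a2 (171.63) and Map3k9 (144.28), all in last exons, and the lincRNA gene A430078I02Rik (138.35). None of these 5 held the CTCF word.

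The widest exonic peak, 5920 bp with a score of 100.62, was at Hvcn1, which encodes the voltage-gated proton channel of B cells and phagocytes, and took in 273 bp at exon 4 of 8. At Btg1, an antiproliferative gene, a peak of 4149 bp (score 132.88) covered 3138 bp of the last exon. Gramd3 had a peak of 5032 bp (score 115.48) at coding exon 4 of 16. Zfp36l2, which encodes an RNA-binding protein, and Ucp2, a mitochondrial carrier, followed among last exons with 3561 and 3513 bp and scores of 105.02 and 30.14.

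Repeated sequence was rare among members. Over 50% of the 31-base words of a peak occurred elsewhere in the assembly in 9 of the 2414 (0.373%), 5 of them noncoding, and in 0.324% of intronic peaks.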

How the data were processed

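DNaseI-seq was carried out on B220-selected splenic B cells. Per the deposited peak list, the authors called peaks with MACS, and the score of each peak is the authors' value. The study's methods give a MACS version and threshold for ChIP-seq, and whether these cover the DNaseI library is unclear. The scale of the score and the use of the input are not given in the sources used here. The submitters' processing notes name BWA 0.6.2, SAMtools and mm9. Start and end positions were read as mm9 (1-based in the text), and 1 peak past the end of chromosome 19 was clipped.

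Exons, coding sequence and 90317 transcripts were taken from GENCODE M1. A base shared by kinds was counted as coding, then last exon or 3′ UTR, then noncoding. Coding sequence in the last exon of a transcript counted as last exon, unless another transcript had it as coding sequence of an earlier exon. Peaks on other chromosomes (932) were not used. Intervals (95%) are Wilson for shares of peaks, exact Poisson for densities, exact binomial for shares of genes in a list, and log-normal for ratios. Intervals of medians come from ranked values. For a difference in medians, only the exonic median varied and the intronic median was taken as fixed. With 1 library there was no test. Python 3.11.15, numpy 2.4.6, scipy 1.17.1 and pandas 2.3.3 were used, and functions were tested on toy data.

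The members and gene lists were chosen with earlier results of these data known. Named are the 10 exonic peaks of highest score, the 5 highest of each kind and within 1 exon, the 5 widest, the 5 genes with most, list members with a peak (the 6 highest where more than 8 have one), and the 6 highest with a CTCF word. Further B cell genes, p53 element hosts and coding CTCF sites were named after their values were seen. Some genes that the rule would name are not reported here. Alternatives were the peak centre, 100 bp of exon, a 1 kb window, coding transcripts only, peaks at or above the median score (32.65), peaks joined under 500 bp, precedence of kinds, covered bases, the whole peak and a longer CTCF consensus.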

Additional observations from a re-analysis of the deposited data

How the results depend on the processing

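Of 61 values with an interval recomputed under alternatives, 31 stayed within the interval of the reported value and 30 did not. Of the 31 differences and ratios among them, 0 changed direction and 1 had an interval that included no difference, the width excess by peak centre (CI -15 to 85). Of 6 recomputed numbers of exonic peaks, 4 were within 1.5-fold of the reported one. By peak centre, the number of exonic peaks was 1100 (2.36% of peaks), the shares of coding, last exon or 3′ UTR and noncoding kinds 28.9%, 54.7% and 16.4%, which turned the order of the first pair, the excess over introns 2.13 in score and 35.5 bp in width, the CTCF ratio 2.36 and the B cell share 29.5%. Among peaks at or above the median score, there were 1037 exonic peaks (4.45%), with a density ratio of 1.73, an excess of 2.09 in score and 58 bp in width, a CTCF ratio of 2.32 and a B cell share of 27.3%. With at least 100 bp of exon, the share was 4.02%, the coding and last exon or 3′ UTR kinds 45.5% and 39.8%, and the width excess 237 bp. A 1 kb window gave a share of 6.85%, with 50.4% coding and 15.1% noncoding. Coding transcripts only gave 6.06%, with 63.4% coding and a GC excess of 3.67 points. Joined peaks gave 5.91% and a width excess of 128 bp. Precedence of kinds gave 57.6%, 31.1% and 11.3%. The longer CTCF consensus gave a ratio of 1.96. No paired analysis was possible because there was 1 DNaseI library.

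These counts describe 1 library of unknown depth. The spread between mice and the effect of the caller's settings were not measured, and 806 peaks shared the lowest width of 334 bp.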
